A study of Rattus norvegicus with 10 samples.

Results

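The actin filament regulators described here are 40 genes that make up, bind or reshape filamentous actin. They were taken by gene symbol under a rule that names no measured value, although the list was drawn up with earlier results of these data known, and all 40 symbols were in the deposited tables. They correspond to 42 of the 23487 gene IDs with counts, because Actg1 and Tmsb10 are each carried by 2 gene IDs. All 42 gene IDs passed the filter on low counts in every comparison, so none is missing from the counts of members below.

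RNA was sequenced from primary cells grown out of the cortex of P1-P3 Sprague-Dawley rat pups, in 10 libraries, 2 for each of 5 groups. In 3 groups, oligodendrocyte precursor cells (OPCs) were differentiated into oligodendrocytes (OLs) and assayed 5 days after transfection with the miR-145-5p mimic (OL miR-145), with that mimic and the miR-219 mimic (OL miR-145 + miR-219) or with a scrambled mimic (OL miR-ctl). In the other groups, OPCs kept in the growth factors FGF2 and PDGFAA were assayed 24 h after transfection with a miR-145-5p inhibitor (OPC anti-miR-145) or a scrambled inhibitor (OPC anti-miR-ctl). Per the labels, every oligonucleotide was used at 30 nM with a lipid reagent, and no group is labelled as untransfected. The treatment tag of the OL miR-145 libraries also names miR-219, whereas their titles and descriptions name miR-145 alone, and they are treated here as miR-145. Where the study describes its RNA sequencing it speaks of lentivirus in these cells, but its results and the labels speak of mimics, and the OL groups are described here as labelled. The labels number the replicates, and the study calls each N a biological replicate and defines it, for primary cells, as the culture of a single mouse. How rat pups were divided among these libraries is not given in the sources used here, and the p-values below measure the spread between these libraries only, which would be technical in so far as they share a culture. The cells are glial cultures enriched for OPCs by shaking, and other glia can remain in them.

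Actin exists as monomers and as filaments, and the regulators decide which form prevails and where. Profilins and thymosins hold monomers, the Arp2/3 complex starts branched filaments once a WASP or WAVE protein activates it, capping protein stops filament ends, and cofilins and gelsolin take filaments apart. Actinins, filamin, tropomyosins and ezrin-radixin-moesin proteins bundle, coat and anchor the filaments. In the OL lineage, branched assembly of actin drives the extension of processes, and actin is taken apart as the cells spread and wrap myelin.

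Most stage markers set the cultures apart, and other markers showed further glia. Mbp, which encodes myelin basic protein and marks maturing OLs, ran from 6224 to 15517 CPM (counts scaled to a fixed library total, after normalization) in the 6 OL libraries and from 231 to 279.5 CPM in the 4 OPC libraries. In each OL group, replicate 2 had the higher level of Mbp. Mog, a further OL marker, overlapped, at 9.20 and 23.2 CPM in OL miR-ctl and 11.6 and 11.9 CPM in OPC anti-miR-ctl. Between these controls, 8 of 9 OL markers were called higher in OLs. The summed level of 5 progenitor genes ran from 1580 to 2240.4 CPM in OLs and from 7063 to 8325 CPM in OPCs. Between the controls, 4 of the 5 were called lower in OLs and 1 higher. Gpr17 went the other way from the sum, at 183 to 375 CPM in OLs and 21.5 to 32.7 CPM in OPCs. Astrocyte genes were abundant in the OL libraries, where Gfap alone ran from 4179 to 9708 CPM against 7.81 to 51.1 CPM in OPCs. The 9 microglial genes summed to between 399 and 1217 CPM. Library totals ran from 33505668 to 42684176 counts. In such mixed cultures, fewer cells of a type and less RNA per cell cannot be told apart.

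Stretches of 5 promoters are shown first, since many of these genes are known targets of serum response factor, which binds the CArG box, or of TEAD factors, which bind GGAATG. RefSeq promoters (build GRCr8) were matched by symbol for 37 of the 40 members, and the 250 bases before the start site were searched on both strands. Actb, Actn4 and Arpc1a had no match, so their promoters were not searched. A CArG box was found in 2 of the 37, Actg1 and Cnn2 (5.41%), against 445 of all 27457 symbols (1.62%). GGAATG was found in 8 of the 37, namely Arpc2, Flna, Mylk, Pfn1, Tpm1, Vcl, Wasf1 and Zyx (21.6%), against 3538 of all symbols (12.9%). No matched member held both motifs. The 120 bases printed run 5′ to 3′ on the gene's strand, all of these genes lie on the minus strand, and capitals mark the motif on either strand. The Actg1 and Cnn2 stretches are shown because they hold the only CArG boxes found in the 37 matched members. The Tpm1, Mylk and Vcl stretches are shown because these genes had the largest falls and rises between the stages or the smallest p with the mimic. A match is a description of the letters, not a bound site.
Actg1, chr10:106120982-106121101: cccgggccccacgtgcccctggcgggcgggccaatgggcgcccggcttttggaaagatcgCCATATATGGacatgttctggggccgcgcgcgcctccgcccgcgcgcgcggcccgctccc
Cnn2, chr7:10370324-10370443: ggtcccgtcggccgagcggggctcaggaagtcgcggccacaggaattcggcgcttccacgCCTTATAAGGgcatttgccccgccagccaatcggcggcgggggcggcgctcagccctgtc
Tpm1, chr8:76543416-76543535: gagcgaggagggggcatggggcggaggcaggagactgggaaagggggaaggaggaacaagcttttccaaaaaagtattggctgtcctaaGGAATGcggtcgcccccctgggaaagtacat
Mylk, chr11:79498575-79498694: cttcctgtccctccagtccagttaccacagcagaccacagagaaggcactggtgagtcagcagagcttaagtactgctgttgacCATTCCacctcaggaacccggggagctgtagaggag
Vcl, chr15:3404908-3405027: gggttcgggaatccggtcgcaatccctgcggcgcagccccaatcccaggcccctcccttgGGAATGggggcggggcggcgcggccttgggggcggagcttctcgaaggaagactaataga
The members whose windows hold a motif did not share a direction between stages. Tpm1, Pfn1, Arpc2 and Zyx were lower in control OLs than in control OPCs, while Mylk, Vcl and Actg1 were higher, as the values below show.

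The members together took 1.29% to 1.34% of all counts in the OL libraries. They took 1.93% and 1.95% in OPC anti-miR-ctl and 1.69% and 1.83% in OPC anti-miR-145. The actins Actb and Actg1 alone accounted for 0.448% to 0.525% of counts in OLs and 0.571% to 0.651% in OPCs. The share of the members was thus lower throughout the OL libraries.

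**Figure D1:**
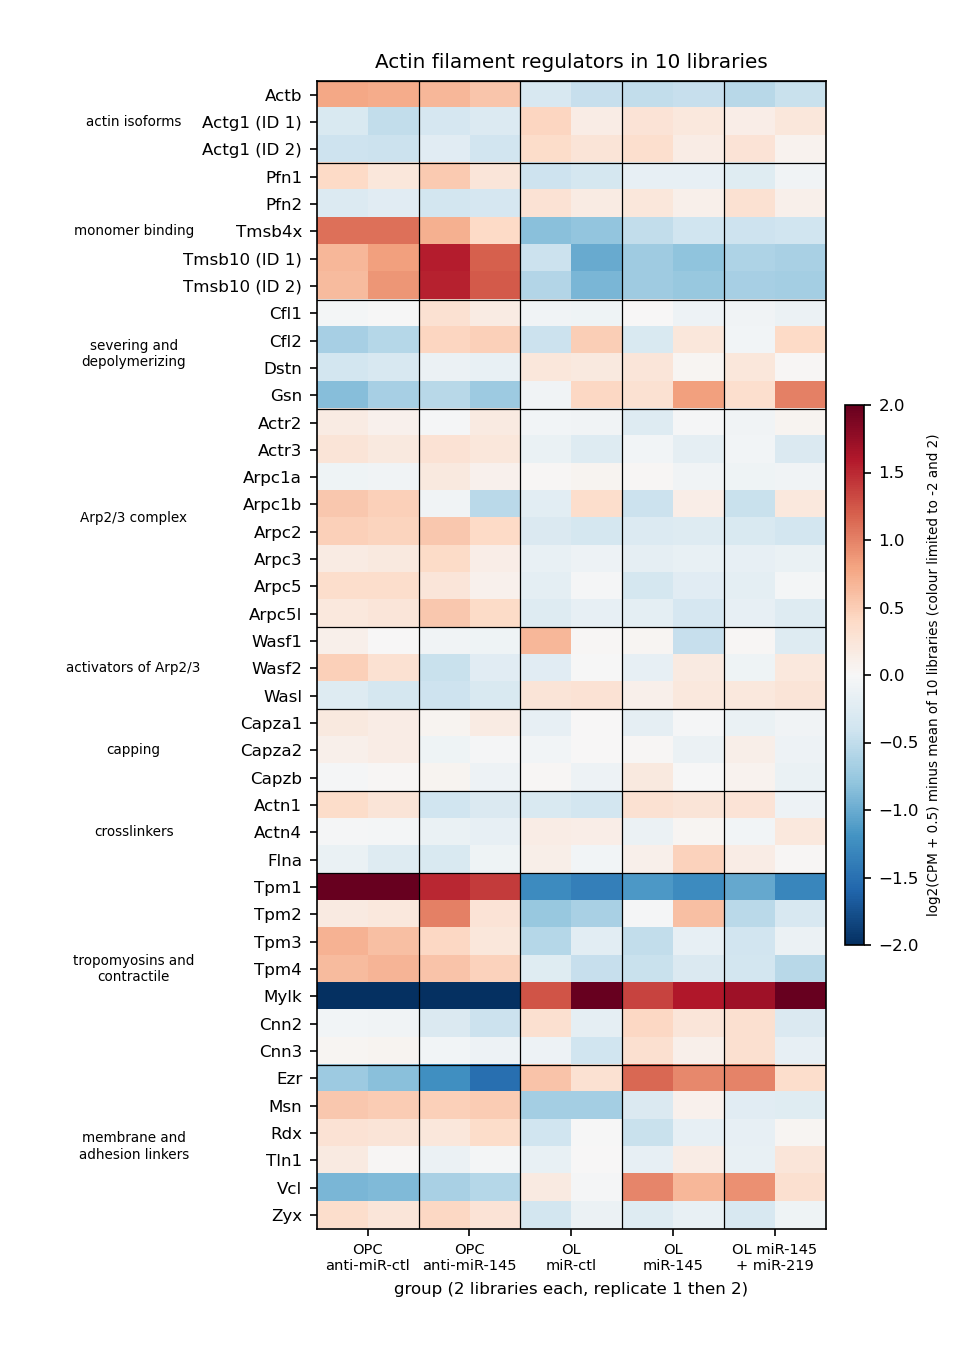
Heatmap of the 42 gene IDs (rows, by role) in the 10 libraries (columns, by group); colour is the log2 level of a gene in a library minus its mean over the 10 libraries, limited to -2 and 2. The OPC and OL columns separate for most rows, with Tpm1, Tmsb4x and Tmsb10 high in OPCs and Ezr, Vcl and Mylk high in OLs, whereas the 3 OL groups look alike for most rows.

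Control OLs were compared with control OPCs to see how the actin machinery differs between the stages. Of the 42 gene IDs, 28 were called at an adjusted p under 0.05 by edgeR's quasi-likelihood test, 9 higher and 19 lower in OL miR-ctl than in OPC anti-miR-ctl. Over all 15721 genes tested, 57.5% were called, 28.8% higher and 28.7% lower, so the members were called lower in a larger share (45.2%) and higher in a smaller share (21.4%) than the genes at large. The median log2 fold change was -0.27 over the members and 0.01 over all genes. The groups did not overlap for 39 of the 42 (92.9%), against 81.7% of all genes. DESeq2, the study's test, called 10 gene IDs higher and 19 lower, among 8388 of 15721 genes called. Stage, medium, control oligonucleotide and time after transfection differ together here and cannot be told apart. With replicate 1 or replicate 2 of OPC anti-miR-ctl left out, 16 and 17 of the 41 members then tested were called, Tpm2 having fallen below the filter, and the calls over all genes fell to 4842 of 15182 and 4780 of 15214. Actb, Actg1, Arpc2, Ezr, Msn, Mylk, Pfn1, Tmsb10, Tmsb4x, Tpm1, Tpm3, Tpm4 and Vcl were called in both of those fits.

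The cytoplasmic actins moved in opposite directions. Actb, which encodes beta-actin, was at 1893 and 1714 CPM in OL miR-ctl and at 4044 and 3929 CPM in OPC anti-miR-ctl. The OL libraries were thus well below the OPC libraries, with a log2 fold change of -1.15 (SE 0.09, adjusted p = 0.000457). Actg1, the gamma-actin gene, was higher in OLs on both of its gene IDs. The larger ID (ENSRNOG00000053452) was at 2687 and 2502 CPM in OLs and at 1576 and 1560.3 CPM in OPCs, a log2 fold change of 0.72 (SE 0.09, adjusted p = 0.00161). The smaller ID (ENSRNOG00000036701) gave 0.69 (SE 0.13, adjusted p = 0.00722). The smaller ID held between 20.1% and 23.6% of the Actg1 counts in every library, so how reads are divided between the IDs is uncertain while their sum is less so. The same holds for Tmsb10, where the smaller ID (ENSRNOG00000036921) held 9.28% to 10.9%.

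Among the genes that bind monomers, 4 of 5 gene IDs were lower and 1 was higher in control OLs. Tmsb4x encodes thymosin beta-4, the main protein that keeps actin monomers out of filaments. It was at 653 and 668 CPM in OL miR-ctl and at 2500.5 and 2504 CPM in OPC anti-miR-ctl, 3.80-fold lower in OLs (log2 fold change -1.93, SE 0.08, adjusted p = 7.67e-05). The libraries of each group lay close together. Tmsb10, a related thymosin, was at 122 and 97.0 CPM in OLs and at 285 and 336 CPM in OPCs on its larger ID, a log2 fold change of -1.51 (SE 0.15, adjusted p = 0.000895). Its smaller ID gave -1.47 (adjusted p = 0.00307). The profilins, which deliver monomers to growing filament ends, were split. Pfn1 was at 325 and 341 CPM in OLs and at 575 and 509.6 CPM in OPCs (log2 fold change -0.71, SE 0.09, adjusted p = 0.00212). Pfn2, the form typical of nervous tissue, was at 109.7 and 101 CPM in OLs and at 74.3 and 76.2 CPM in OPCs (0.48, SE 0.08, adjusted p = 0.00535).

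Of the 4 genes that sever or depolymerize filaments, 2 were called, both higher in control OLs. Gsn, which encodes the calcium-activated severing protein gelsolin, was at 108 and 151 CPM in OLs and at 63.0 and 71.5 CPM in OPCs. Its log2 fold change was 0.94 (SE 0.18, adjusted p = 0.00793), and without replicate 1 of OPC anti-miR-ctl the adjusted p was 0.0713. Dstn, which encodes destrin, was at 461 and 452 CPM in OLs and at 304 and 315 CPM in OPCs (0.56, SE 0.08, adjusted p = 0.0027). Cfl1, the widely expressed cofilin, was nearly level, at 1747 and 1726 CPM in OLs and 1791 and 1833 CPM in OPCs (-0.07, SE 0.08, adjusted p = 0.52). Cfl2 was at 116 and 219 CPM in OLs and 98.7 and 105 CPM in OPCs. The spread between the OL libraries left its log2 fold change of 0.71 (SE 0.30) uncalled by edgeR (adjusted p = 0.0915), while DESeq2 called it.

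The 8 listed subunits of the Arp2/3 complex were lower in control OLs or not called, and none was called higher. The 5 called lower were Arpc2, Arpc5, Arpc5l, Actr3 and Arpc3, and the median over the 8 was -0.42. Arpc2, a core subunit, showed the largest difference, with 228 and 219.9 CPM in OLs and 388 and 383 CPM in OPCs (log2 fold change -0.79, SE 0.07, adjusted p = 0.000752). Arpc5 and its relative Arpc5l differed by -0.45 and -0.44, Actr3 (the Arp3 subunit) by -0.42 and Arpc3 by -0.31. Actr2, which encodes Arp2, was not called at -0.19 (SE 0.07, adjusted p = 0.0738). The alternative subunits Arpc1a and Arpc1b stood at 0.12 and -0.42, neither called, and Arpc1b varied between the OL miR-ctl libraries (253 and 373 CPM). Of these subunits, Arpc2 alone was called both without replicate 1 and without replicate 2 of OPC anti-miR-ctl.

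The activators of Arp2/3 did not share a direction. Wasl, which encodes N-WASP, was at 73.5 and 75.5 CPM in control OLs and 51.4 and 48.3 CPM in control OPCs, a log2 fold change of 0.58 (SE 0.08, adjusted p = 0.00239). Wasf2, which encodes WAVE2, was lower in OLs, at 20.6 and 24.1 CPM against 33.8 and 30.2 CPM (-0.52, SE 0.12, adjusted p = 0.0151). Wasf1, the WAVE form typical of nervous tissue, overlapped between the groups, with 275 and 177 CPM in OLs and 186 and 174 CPM in OPCs. None of the 3 capping protein genes was called. Capza1 came nearest at -0.25 (adjusted p = 0.0556), beside -0.15 for Capza2 and -0.04 for Capzb.

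Crosslinkers were mostly level between the stages. Actn1, a non-muscle alpha-actinin found in adhesions and stress fibres, was at 12.8 and 12.3 CPM in OLs and 20.7 and 19.3 CPM in OPCs (log2 fold change -0.68, SE 0.11, adjusted p = 0.00407). Actn4, the other non-muscle alpha-actinin, stood at 0.17 (adjusted p = 0.105) and Flna, which encodes filamin A, at 0.22 (adjusted p = 0.0983), neither of them called.

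The tropomyosins, which coat filaments and set which proteins can bind them, were all called lower in control OLs. Tpm1 had the smallest p of the members, with 68.4 and 63.0 CPM in OL miR-ctl and 733 and 814 CPM in OPC anti-miR-ctl. It was 11.8-fold lower in OLs, a log2 fold change of -3.56 (SE 0.11, adjusted p = 4.55e-05). Tpm3 was at 162 and 207 CPM in OLs and 386 and 364 CPM in OPCs (-1.03, SE 0.14, adjusted p = 0.00227), and Tpm4 was at 67.8 and 58.3 CPM against 126 and 130.2 CPM (-1.02, SE 0.10, adjusted p = 0.000819). Tpm2, the least abundant, had 3 and 4 counts in OLs and 26 and 23 counts in OPCs. Its ratio of rates was 0.143, with a 95% exact interval of 0.0546 to 0.317 that covers counting error only.

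The contractile regulators included the largest difference in the other direction. Mylk, which encodes myosin light chain kinase, had 414 and 874 counts in control OLs and 16 and 9 counts in control OPCs. In CPM, these were 10.4 and 26.8 against 0.374 and 0.247, so every OL library was far above every OPC library. The ratio of rates was 51.5 (95% exact interval 34.7 to 79.9, counting error only), and the log2 fold change was 5.87 (SE 0.63, adjusted p = 0.00119). Of the calponins, which bind actin and restrain myosin, neither was called. Cnn2 stood at 0.17 and Cnn3 at -0.29 (adjusted p = 0.0831).

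The genes of proteins that link actin to the membrane and to adhesions included relatives that differed in opposite directions. Ezr, which encodes ezrin, was at 116 and 96.5 CPM in OL miR-ctl and 46.8 and 43.3 CPM in OPC anti-miR-ctl (log2 fold change 1.23, SE 0.11, adjusted p = 0.000693). Msn, which encodes moesin, went the other way, with 246 and 244 CPM in OLs and 574 and 557 CPM in OPCs (-1.21, SE 0.07, adjusted p = 0.000195). Rdx, the third gene of the family, was at 124 and 162 CPM in OLs and 199 and 195 CPM in OPCs (-0.46, SE 0.14, adjusted p = 0.0373), and it was not called with either OPC anti-miR-ctl library left out. Vcl, which encodes the adhesion protein vinculin, was at 67.6 and 58.7 CPM in OLs and 31.4 and 32.0 CPM in OPCs (0.99, SE 0.10, adjusted p = 0.000955). Zyx, which encodes zyxin, fell by 0.55 on the log2 scale in OLs (adjusted p = 0.0102), and talin (Tln1) stood at -0.18 (adjusted p = 0.179). Astrocyte genes moved with the stage as well. The 7 of them summed to 6185 and 5341 CPM in OL miR-ctl and to 571 and 548 CPM in OPC anti-miR-ctl, and 6 of the 7 were called higher. The microglial sum was 419.9 and 628 CPM in OL miR-ctl and 1090.2 and 1011 CPM in OPC anti-miR-ctl, with 5 of 9 genes called lower. The part of either cell type in the members' differences was not tested.

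**Figure D2:**
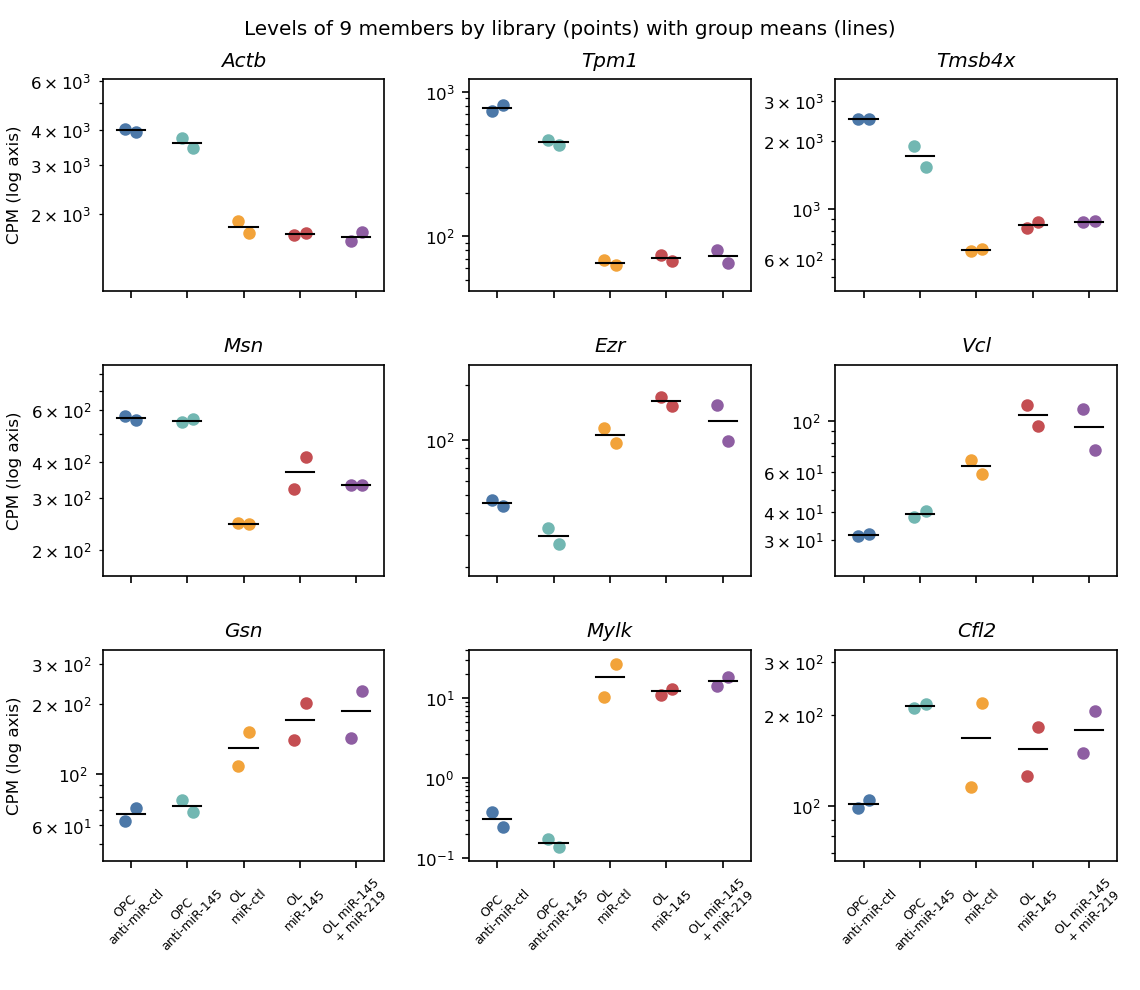
Levels in CPM (log axes with a range of their own) of 9 members in the 5 groups; points are libraries and lines group means. Tpm1 and Tmsb4x sit far lower in every OL library than in the OPC libraries, Ezr, Vcl and Mylk sit higher, and Cfl2 in OPC anti-miR-145 (212 and 218 CPM) lies above OPC anti-miR-ctl (98.7 and 105 CPM).

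The same separation was seen over the whole series. The 6 OL libraries did not overlap with the 4 OPC libraries for 27 of the 42 gene IDs (64.3%), against 50.7% of 16339 genes. Lower in every OL library were 17 gene IDs (40.5%, against 24.3% of all genes), belonging to Actb, Pfn1, Tmsb4x, Tmsb10, Actr3, Arpc2, Arpc3, Arpc5, Arpc5l, Capza1, Tpm1, Tpm3, Tpm4, Msn, Rdx and Zyx. Higher in every OL library were 10 gene IDs (23.8%, against 26.4% of all genes), belonging to Actg1, Pfn2, Dstn, Gsn, Wasl, Flna, Mylk, Ezr and Vcl. These counts include the control libraries of the stage comparison and are a description without a test.

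The inhibitor of miR-145 was compared with its control in OPCs to ask how the progenitors respond when the miRNA is blocked. Of the 42 gene IDs, 10 were called, 4 higher and 6 lower in OPC anti-miR-145. This share of 23.8% lies near the 28.1% called among all 15496 genes, of which 12.1% were higher and 16.0% lower. The groups did not overlap for 28 of the 42 (66.7%), against 67.8% of all genes. DESeq2 called 5 gene IDs higher and 7 lower, among 4090 of 15496 genes called. The median log2 fold change was -0.02 over the members and 0.00 over all genes, and the median size of the change was 0.15 over the members and 0.27 over all genes. The count called by edgeR depended on single libraries. It was 20 without replicate 2 of OPC anti-miR-145 and 15 without replicate 1, and it was 7 and 9 without replicate 1 and replicate 2 of OPC anti-miR-ctl. The calls over all genes moved in the same order, with 7133 of 15281, 5312 of 15305, 2348 of 15138 and 2407 of 15214 genes.

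Cfl2, the cofilin best known from muscle, rose most clearly with the inhibitor. It was at 212 and 218 CPM in OPC anti-miR-145 and at 98.7 and 105 CPM in OPC anti-miR-ctl. The treated libraries were 2.13-fold above the controls, with a log2 fold change of 1.09 (SE 0.08, adjusted p = 0.000179) that stayed between 1.02 and 1.12 as each library was left out. The other severing genes lay on the same side of 0 without being called in the main edgeR test. Cfl1 was at 2284 and 2072 CPM against 1791 and 1833 CPM (0.28, SE 0.09, adjusted p = 0.0619). DESeq2 called Cfl1 higher, as did edgeR with no filter on low counts. Dstn was at 363 and 353 CPM against 304 and 315 CPM (0.23, SE 0.08, adjusted p = 0.0799). Gsn stood at 0.13 (adjusted p = 0.392).

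The thymosins moved in opposite directions. Tmsb10 rose on both IDs, with 535 and 430.4 CPM against 285 and 336 CPM on the larger (log2 fold change 0.65, SE 0.14, adjusted p = 0.014) and 0.67 (SE 0.15, adjusted p = 0.015) on the smaller. Without replicate 1 of OPC anti-miR-ctl these adjusted p-values were 0.0658 and 0.0508. Tmsb4x fell from 2500.5 and 2504 CPM in the controls to 1908 and 1532 CPM with the inhibitor (-0.52, SE 0.12, adjusted p = 0.0195). The ratio of Tmsb10 to Tmsb4x counts was accordingly 0.313 and 0.312 in OPC anti-miR-145 and 0.127 and 0.149 in OPC anti-miR-ctl.

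Tpm1 fell with the inhibitor, to 465 and 430.3 CPM from 733 and 814 CPM (log2 fold change -0.77, SE 0.10, adjusted p = 0.00157). Tpm3 was at 318 and 280.3 CPM against 386 and 364 CPM and just missed the threshold in edgeR (-0.31, SE 0.10, adjusted p = 0.0522). DESeq2 called Tpm3 lower, as did edgeR with no filter on low counts. Tpm4 stood at -0.13 (adjusted p = 0.298). Actn1 fell to 12.0 and 12.9 CPM from 20.7 and 19.3 CPM (-0.67, SE 0.10, adjusted p = 0.00328). Wasf2 fell to 17.7 and 20.6 CPM from 33.8 and 30.2 CPM (-0.72, SE 0.11, adjusted p = 0.00329), while Wasf1 and Wasl stood at -0.11 and -0.04.

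A single Arp2/3 subunit was called. Arpc1b, one of the alternative forms of a subunit, was at 279 and 201 CPM in OPC anti-miR-145 and at 426 and 409 CPM in OPC anti-miR-ctl (log2 fold change -0.78, SE 0.15, adjusted p = 0.0104). Its counterpart Arpc1a lay on the other side of 0, at 266 and 245 CPM against 217 and 219 CPM (0.24, SE 0.09, adjusted p = 0.0769), as did Arpc5l at 0.26 (adjusted p = 0.0804). The 5 further subunits lay between -0.16 and 0.09. The microglial markers moved with the inhibitor in both directions, with 5 of 9 called higher and 4 lower. Aif1 was at 98.3 and 61.4 CPM with the inhibitor and at 207 and 219 CPM in the controls, while C1qa was at 204 and 161 CPM against 86.8 and 80.8 CPM. The summed microglial level overlapped, at 1217 and 967 CPM against 1090.2 and 1011 CPM. The astrocyte sum was 290.0 and 344 CPM against 571 and 548 CPM, with 1 gene called higher and 3 lower of the 6 tested. The 3 endothelial genes found summed to 2.18 and 2.09 CPM against 11.6 and 10.9 CPM, with 1 called lower. That fall lay in Flt1, at 0.993 and 0.749 CPM against 10.7 and 10.1 CPM, while 2 of the 3 lay above 0. The part of these cell types in the members' changes was not tested.

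Of the linkers, Ezr fell and Vcl rose with the inhibitor. Ezr was at 32.9 and 26.9 CPM against 46.8 and 43.3 CPM (log2 fold change -0.57, SE 0.12, adjusted p = 0.0135). Vcl was at 37.9 and 40.1 CPM against 31.4 and 32.0 CPM (0.32, SE 0.09, adjusted p = 0.0346). The call of Vcl did not hold without replicate 1 or replicate 2 of OPC anti-miR-ctl (adjusted p = 0.352 and 0.268) or in a fit of all 5 groups (0.268). In that fit Ezr and Arpc1b were not called either (adjusted p = 0.0976 and 0.102). Msn, Rdx, Tln1 and Zyx lay between -0.17 and 0.07 and were not called. The actins and the capping proteins gave no call, with Actb at -0.13 (adjusted p = 0.315), the 2 IDs of Actg1 at 0.11 and 0.13, and Capza2 at -0.17 (adjusted p = 0.159). The profilins, Actn4, Flna, Cnn3, Capza1 and Capzb lay between -0.11 and 0.08, and Cnn2 stood at -0.29 (adjusted p = 0.107). At low counts, Tpm2 stood at 0.80 (SE 0.43) and Mylk at -0.99 (SE 0.49), neither of them called.

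**Figure D3:**
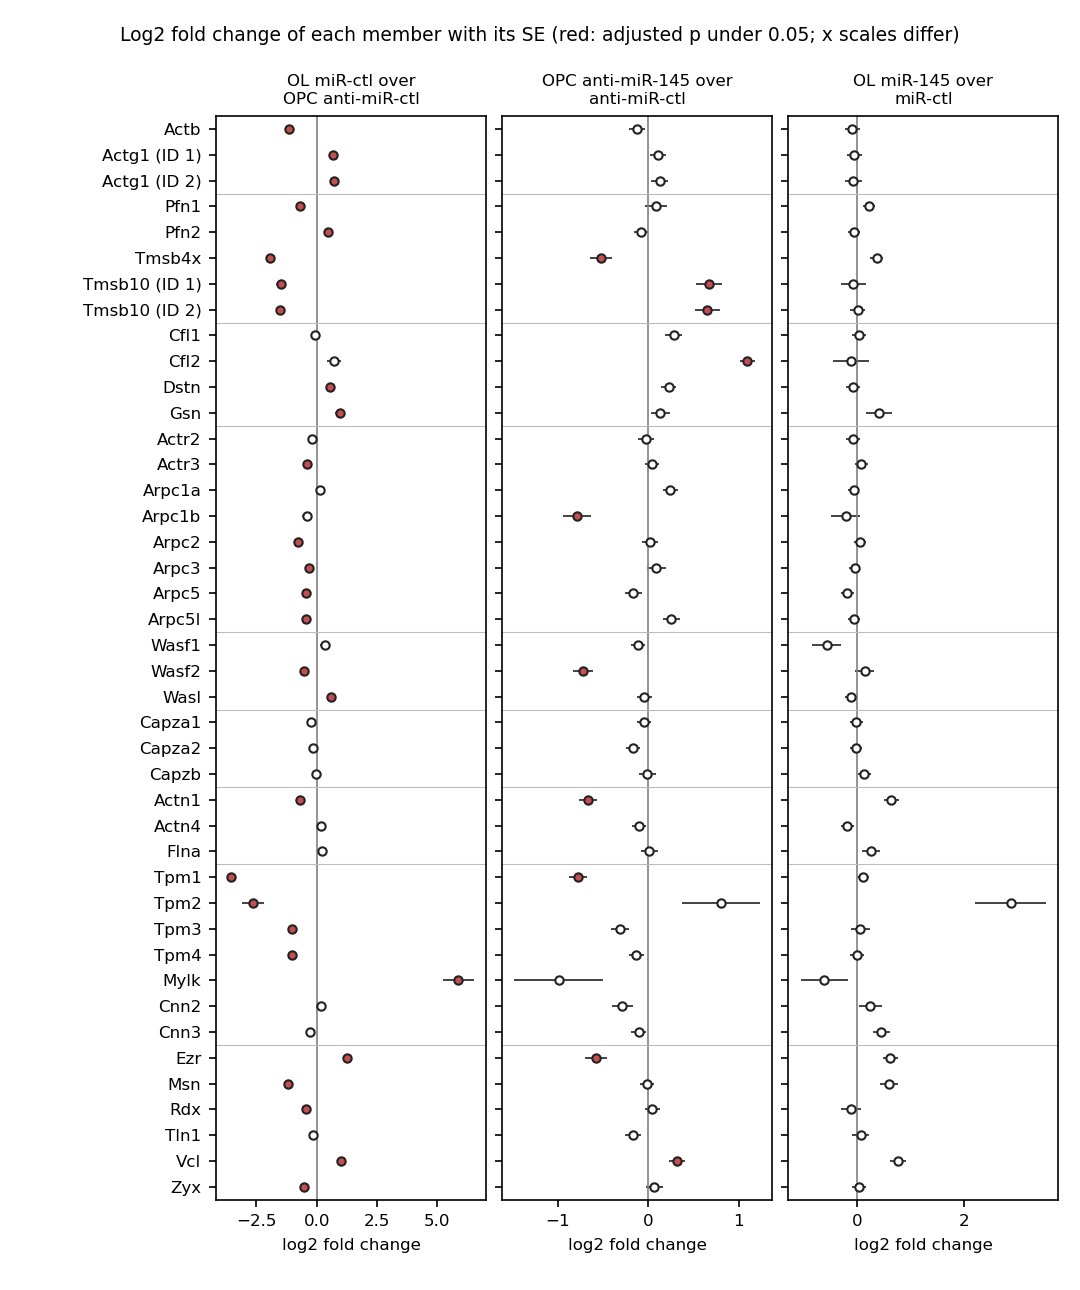
Log2 fold change of each of the 42 gene IDs, with SE as bars, for OL miR-ctl over OPC anti-miR-ctl, OPC anti-miR-145 over OPC anti-miR-ctl and OL miR-145 over OL miR-ctl; red points had an adjusted p under 0.05, the x scales differ between panels, and ID 1 and ID 2 are the smaller and larger gene ID of Actg1 and Tmsb10. The panels hold 28, 10 and 0 red points.

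The miR-145 mimic was compared with miR-ctl in OLs to ask what extra miR-145 changes in differentiating cells. None of the 42 gene IDs was called by edgeR, as was so for all 15461 genes (0.0% called, higher or lower), and 0.164 was the lowest adjusted p among the members. Before adjustment, 7 members (16.7%) had a p under 0.05, against 13.4% of all genes. The groups did not overlap for 14 members (33.3%), a smaller share than the 47.3% of all genes. DESeq2 on the same libraries called 649 of the 15461 genes and 4 members, Actn1, Ezr, Msn and Vcl, each higher with the mimic. The median log2 fold change was 0.01 over the members and -0.01 over all genes.

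The 4 members of smallest p in this comparison were Vcl, Actn1, Ezr and Tpm2, all on the higher side with the mimic. Vcl was at 118 and 95.2 CPM in OL miR-145 and 67.6 and 58.7 CPM in OL miR-ctl, a log2 fold change of 0.76 (SE 0.15, edgeR adjusted p = 0.164, DESeq2 adjusted p = 0.00417). Actn1 was at 19.9 and 19.1 CPM against 12.8 and 12.3 CPM (0.64, SE 0.13, adjusted p = 0.173 and 0.0256 by the same tools). Ezr was at 173 and 153 CPM against 116 and 96.5 CPM (0.62, SE 0.14, adjusted p = 0.188 and 0.0164). Both mimic libraries lay above both controls for each of these genes. Msn was at 322 and 417 CPM against 246 and 244 CPM (0.60, SE 0.16, adjusted p = 0.223 and 0.0386).

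Tpm2 showed the largest fold of the members, on very few counts. It had 16 and 39 counts in OL miR-145 and 3 and 4 in OL miR-ctl, a ratio of rates of 7.59 with an exact 95% interval of 3.45 to 19.8 for counting error, and its edgeR adjusted p was 0.192. Cnn3 was at 309.9 and 267 CPM against 232 and 189.5 CPM (log2 fold change 0.46, adjusted p = 0.307), and Tmsb4x was at 825 and 877 CPM against 653 and 668 CPM (0.37, adjusted p = 0.311). Wasf1 had a log2 fold change of -0.56 with overlapping libraries, 179 and 126 CPM against 275 and 177 CPM, and replicate 1 was the higher in both groups. Mylk was at 11.1 and 13.2 CPM against 10.4 and 26.8 CPM and overlapped as well. The actins differed by -0.08 (Actb), -0.04 and -0.06 (the IDs of Actg1), and the 8 Arp2/3 subunits lay between -0.21 and 0.08. Gsn stood at 0.41 with overlapping libraries (141 and 202 CPM against 108 and 151 CPM, replicate 2 the higher in both groups), and each member not named in this comparison, Cfl2 included, lay between -0.17 and 0.26.

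The tested markers of astrocytes, microglia and fibroblasts or mural cells lay on the higher side with the mimic, though none was called. Of the maturing OL markers, 2 of 9 lay above 0, with a median log2 fold change of -0.24. Of the progenitor markers, 2 of 5 lay above 0, with a median of -0.39, and none of either list was called. The astrocyte genes summed to 12776 and 8829 CPM in OL miR-145 and 6185 and 5341 CPM in OL miR-ctl, and all 7 lay above 0 with a median log2 fold change of 0.88, though none was called. All 9 microglial genes lay above 0, with a median of 0.73. Their sums overlapped between the groups, at 423 and 1063 CPM against 419.9 and 628 CPM. For fibroblasts or mural cells, 4 of 7 genes outside smooth muscle were found, and they summed to 10.0 and 54.0 CPM against 3.72 and 4.33 CPM. Collagen Col3a1 was at 29.9 CPM in replicate 2 of OL miR-145 and at 3.06 CPM in replicate 1. The part of these cells in the higher levels of Vcl, Actn1, Ezr, Msn and Tpm2 was not tested. Without replicate 2 of OL miR-145 the log2 fold change of Vcl was 0.90 and without replicate 1 it was 0.60. Like Vcl, Ezr (173 and 153 CPM) and Actn1 (19.9 and 19.1 CPM) were higher in replicate 1 of OL miR-145 than in replicate 2. Msn (322 and 417 CPM) and Tpm2 (0.462 and 0.985 CPM) went the other way and, like Col3a1, were higher in replicate 2.

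The combined mimics were compared with the same miR-ctl libraries, so the values share their controls with those above. No member and no gene of 15436 was called by edgeR (0.0%, higher or lower), and 0.80 was the lowest adjusted p of a member. Before adjustment, a p under 0.05 was found for 4 members (9.52%), Msn, Tmsb4x, Actn1 and Vcl, against 6.19% of all genes, and groups did not overlap for 8 members (19.0%), against 36.7%. DESeq2 called 106 genes and no member. Msn was at 334 CPM in both OL miR-145 + miR-219 libraries (log2 fold change 0.45, SE 0.10), and Tmsb4x was at 874 and 880.2 CPM (0.41, SE 0.11). Vcl was at 113 and 74.8 CPM (0.58, SE 0.22), and Actn1 was at 19.4 and 14.8 CPM (0.45, SE 0.17), with replicate 1 the higher for both. Beyond these, Tpm2 stood at 1.18, Gsn at 0.53, Wasf1 at -0.49, Cnn3 at 0.34 and Ezr at 0.26, and the remaining members lay between -0.18 and 0.23. The astrocyte genes summed to 10605 and 6404 CPM against 6185 and 5341 CPM in OL miR-ctl, with replicate 1 the higher in both groups, and 6 of the 7 lay above 0 with none called. Their part in the members' values was not tested.

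Adding the miR-219 mimic was tested directly, as OL miR-145 + miR-219 against OL miR-145. None of the 15501 genes, and so no member, was called by edgeR (0.0%, higher or lower), and DESeq2 called 9 genes and no member. Before adjustment, 228 genes (1.47%) and 1 member, Tpm2, had a p under 0.05. Groups did not overlap for 9 members (21.4%), against 24.8% of all genes. Tpm2 was at 0.173 and 0.281 CPM with both mimics and at 0.462 and 0.985 CPM with miR-145 alone (log2 fold change -1.69, SE 0.59, adjusted p = 1.00). Mylk was at 14.2 and 18.4 CPM against 11.1 and 13.2 CPM (0.41, SE 0.20). Ezr was at 155 and 99.2 CPM against 173 and 153 CPM (-0.37, SE 0.23), and Rdx differed by 0.23 (SE 0.15). Outside Tpm2, Mylk and Ezr, every member lay between -0.30 and 0.23.

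Actn1, Ezr and Vcl were among the members of smallest p with the mimic and were called with the inhibitor, in comparisons that share no libraries. They were picked out after their values were seen. Actn1 had a log2 fold change of 0.64 with the mimic in OLs and of -0.67 with the inhibitor in OPCs. Ezr had 0.62 and -0.57 in the same order. Vcl had 0.76 and 0.32, above 0 in both. Cfl2, the member with the smallest p under the inhibitor, was at 126 and 183 CPM with the mimic and 116 and 219 CPM with the scrambled mimic, which differ by -0.11 on the log2 scale (SE 0.34). The cell stage and the time after transfection differ between these comparisons, and the difference between them was not tested.

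Ratios of counts within a library show the relative levels of related members, with no correction for gene length. The part of other cell types in these ratios was not tested. The ratio of Actb to Actg1 was 0.504 to 0.598 in the 6 OL libraries, 1.98 and 1.99 in OPC anti-miR-ctl and 1.67 and 1.67 in OPC anti-miR-145. The ratio of Ezr to Msn was 0.297 to 0.537 in OLs, 0.0816 and 0.0778 in OPC anti-miR-ctl and 0.0601 and 0.0482 in OPC anti-miR-145. Every OL library was on one side of every OPC library for both ratios, and the OPC groups did not overlap either. The ratio of Tmsb10 to Tmsb4x did not follow the stage in this way, with 0.137 to 0.210 in OLs beside 0.127 and 0.149 in OPC anti-miR-ctl, while OPC anti-miR-145 stood above both. The ratio of Tpm1 to Tpm3 was 0.297 to 0.436 in OLs, 1.90 and 2.24 in OPC anti-miR-ctl and 1.46 and 1.54 in OPC anti-miR-145.

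**Figure D4:**
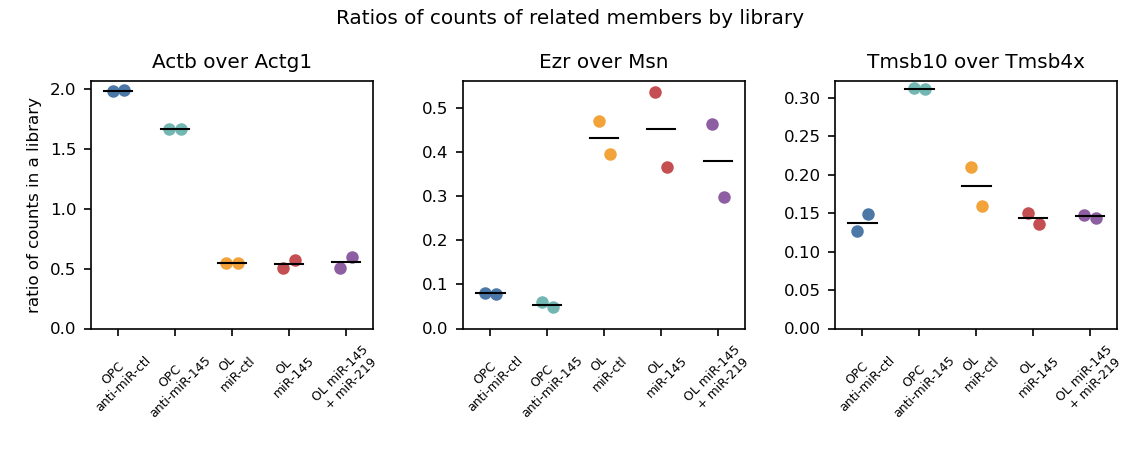
Ratios of counts of related members (Actb over Actg1, Ezr over Msn and Tmsb10 over Tmsb4x, with both IDs of a gene summed) in each library by group; points are libraries, lines are group means, and each axis starts at 0. The first ratio is 1.98 and 1.99 in OPC anti-miR-ctl and at most 0.598 in OLs, the second is highest in OLs, and the third is highest in OPC anti-miR-145.

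A wider list of 106 other actin genes, of which 94 symbols were found, gave the setting for the members. The counts tested are of gene IDs, since some symbols carry more than a single ID and some IDs fell below the filter. Between the stages, 34 of the 93 gene IDs tested were higher and 30 lower in control OLs (68.8% called, against 57.5% of all genes). Called higher with the smallest p were the formin Fmnl2 (3.46 on the log2 scale), the formin Daam2 (7.04) and Tagln3 (2.59). Called lower were the GTPase gene Rac2 (-4.22), Evl of the Ena/VASP family (-2.08) and the formin Diaph3 (-4.07). With the inhibitor, 11 of 94 rose and 20 fell (33% called, against 28.1% of all genes). The 3 of smallest p that rose were filamin C (Flnc, 2.15), caldesmon (Cald1, 0.93) and Marcksl1 (0.59), and those that fell were Diaph3 (-1.59), Vasp (-1.61) and Nckap1l (-1.26). Rac2 and Nckap1l are known from blood cells, and the part of microglia in their values was not tested. In the 3 mimic comparisons none of these genes was called by edgeR. At an unadjusted p under 0.05 were 20 of 93 for miR-145, against 13.4% of all genes. For both mimics there were 7 of 91, against 6.19%, and for the addition of miR-219 there were 2 of 94, against 1.47%.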

How the data were processed

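Libraries were stranded poly(A) RNA-seq. Per the study's methods, the authors assigned reads to GENCODE transcripts of rat Rnor6.0 with Salmon 0.12.0 and summarised them with tximport, and the deposited table holds estimated counts per gene, not normalized. A second deposited table holds the authors' DESeq2 fold changes and p-values for OL miR-145, which were not used, and the gene symbols, which were. The 40 members and the other lists were chosen with earlier results of these data known. Counts were rounded to whole numbers. The quasi-likelihood test of edgeR 4.0.16 (R 4.3.3, TMM, two-sided) was run separately for the 5 comparisons on the 4 libraries concerned. It covered all genes that reached 5 counts in 2 or more of these libraries, and a gene was called when its p after Benjamini-Hochberg adjustment lay below 0.05. SE is the size of the log2 fold change divided by the square root of F. CPM uses TMM over all 10 libraries. The fits were tested on simulated data. The study's test, DESeq2 (here 1.42.0), was an alternative, with its size factors, no filter, all groups in a single fit, a replicate block, each library left out and, added after seeing the data, IDs of a symbol summed. Members called, or of smallest p where none was, were named with full statistics by a set rule, and further members were named after their values were seen. Mature miR-145 was not analysed here.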

Additional observations from a re-analysis of the deposited data

How the results depend on the processing

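Each group had 2 libraries, and in every group these differed by more than counting error. Counts were low for Tpm2 and, in OPCs, for Mylk. Whether spread or depth limits the calls was not tested. For OL miR-145 against OL miR-ctl, 0 members were called by edgeR, 4 by DESeq2 (649 of 15461 genes) and 9 with a replicate block (2272 genes). With the block, Actn1, Cnn3, Ezr, Gsn, Msn, Tmsb4x, Tpm2 and Vcl were higher and Wasf1 was lower. That block is not supported by the labels. Deviations of same-numbered libraries correlated across genes at 0.204 for miR-145, 0.203 for both mimics and 0.358 for the addition of miR-219, and at -0.0479 for the inhibitor and 0.016 for the stages, and 2 numbers cannot show pairing. With the replicate block, 9 members were called for the inhibitor (Vcl was lost, 3963 of 15496 genes called) and 28 for the stages (8534 of 15721 genes), and none in the other comparisons. With all 5 groups in 1 fit, 2657 rather than 4348 of the 15496 genes and 7 members were called for the inhibitor, and 79 rather than 0 genes and 0 members for miR-145. With each library left out, members called ranged from 7 to 20 for the inhibitor and from 16 to 38 for the stages, and from 0 to 0 in the mimic comparisons. The median log2 fold change over members then ranged from -0.076 to -0.025 for the inhibitor and from -0.29 to -0.17 for the stages. Directions turned only for members that were not called. Arpc1b ranged from -0.52 to 0.090 for miR-145 (0.044 without replicate 1 of OL miR-145, 0.090 without replicate 2 of OL miR-ctl) and from -0.54 to 0.13 for both mimics (0.12 and 0.13 without the corresponding libraries), where Capza2 was between -0.069 and 0.13. For the addition of miR-219, Actg1 (larger ID) ranged from -0.17 to 0.016, Cfl2 from -0.057 to 0.50 and Wasf1 from -0.15 to 0.33, and they turned to 0.016 and 0.014, -0.057 and -0.052, and -0.076 and -0.15. The cause of these turns was not tested. DESeq2 size factors, no filter and summed IDs turned no direction of a named member and left each count within 1.5 times the main one.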
